A study of Homo sapiens with 5 samples.

Results

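MDM2, CCNG1, PPM1D and RPS27L are 4 genes that p53 switches on and whose products act back on p53. Their listed ChIP-seq sites for p53 and for JMJD3 are described here. The members were the sites lying within 50 kb of the approximate transcription start site (TSS) of each gene on the hg18 assembly. These starts were placed at position 67488240 of chromosome 12 for MDM2, 162797150 of chromosome 5 for CCNG1, 56032330 of chromosome 17 for PPM1D and 61236500 of chromosome 15 for RPS27L. In all, 70 of the 43443 sites of the 4 deposited lists met this rule. The cells were BJ, human foreskin fibroblasts that keep dividing because they carry telomerase. They were either left untreated or given 10 Gy of ionizing radiation (IR), which breaks both strands of DNA, and were collected 6 h later according to the labels, while the text of the paper gives a slightly shorter interval. Chromatin was pulled down with the p53 antibody DO-1 or with a rabbit antibody raised against JMJD3 (KDM6B), and there was 1 library for each combination of antibody and exposure. There are therefore no replicates, no difference between conditions could be tested, and every value below describes 1 library. The control library for peak detection was rabbit IgG, and the labels give it for untreated cells only.

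Each list gives positions and no height, score or read number. A site is thus either listed or not, the depth of each library is unknown, and binding too weak for the peak caller is not seen. The lists differed in length, with 361 sites for p53 in untreated cells and 3232 after IR, and 4717 sites for JMJD3 in untreated cells and 35133 after IR. A gene is more likely to have a site in a longer list, and whether the longer lists after IR reflect binding, depth or both cannot be told apart with 1 library per condition.

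p53 is a transcription factor that is kept scarce in unstressed cells and accumulates after DNA damage. It binds as a tetramer to a DNA element made of 2 similar decamers, and some of the genes it switches on encode its own regulators, so that the response is limited in time. MDM2 encodes the ubiquitin ligase that marks p53 for degradation. PPM1D encodes WIP1, a phosphatase that removes damage-induced phosphates from p53 and from the kinases upstream of it. CCNG1 encodes cyclin G1, which brings the phosphatase PP2A to MDM2, and RPS27L encodes a ribosomal protein related to RPS27 that binds MDM2. JMJD3 removes methyl groups from lysine 27 of histone H3 and has no known DNA-binding domain of its own.

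The promoter sequences are shown first, since all 4 genes had a p53 site at or close to the start. RefSeq lists 2 promoters for MDM2, the second starting 845 bases after the first in GRCh38. The second is the p53-responsive promoter inside the gene, and the first is the constitutive one. Each run below gives the 250 bases before a RefSeq start (GRCh38.p14), 5′ to 3′ on the strand of the gene. Capitals mark matches to the p53 motif of 20 letters (2 decamers with no spacer, a palindrome, so that both strands are covered) with at most 3 mismatches.
MDM2 second promoter (chr12:68808767-68809016, plus strand): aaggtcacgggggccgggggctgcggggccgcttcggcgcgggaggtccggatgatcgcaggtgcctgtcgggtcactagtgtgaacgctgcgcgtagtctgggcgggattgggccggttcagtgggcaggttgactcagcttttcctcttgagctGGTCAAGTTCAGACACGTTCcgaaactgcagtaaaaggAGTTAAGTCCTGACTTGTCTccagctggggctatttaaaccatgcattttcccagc
MDM2 first promoter (chr12:68807922-68808171, plus strand): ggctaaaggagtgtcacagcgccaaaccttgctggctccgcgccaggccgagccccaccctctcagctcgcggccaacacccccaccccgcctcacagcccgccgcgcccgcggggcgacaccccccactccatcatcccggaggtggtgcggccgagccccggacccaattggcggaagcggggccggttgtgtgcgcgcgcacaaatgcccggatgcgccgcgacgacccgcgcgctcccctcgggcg
RPS27L (chr15:63157478-63157727, minus strand): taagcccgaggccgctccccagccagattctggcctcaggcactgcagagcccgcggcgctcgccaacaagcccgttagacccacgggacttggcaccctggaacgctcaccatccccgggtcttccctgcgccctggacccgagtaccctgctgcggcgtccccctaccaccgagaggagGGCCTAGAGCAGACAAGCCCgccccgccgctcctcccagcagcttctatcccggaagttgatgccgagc
CCNG1 (chr5:163437321-163437570, plus strand): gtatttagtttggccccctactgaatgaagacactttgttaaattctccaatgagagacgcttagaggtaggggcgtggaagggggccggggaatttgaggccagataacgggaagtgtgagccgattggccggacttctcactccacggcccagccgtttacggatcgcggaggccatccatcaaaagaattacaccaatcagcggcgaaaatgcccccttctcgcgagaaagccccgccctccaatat
PPM1D (chr17:60599943-60600192, plus strand): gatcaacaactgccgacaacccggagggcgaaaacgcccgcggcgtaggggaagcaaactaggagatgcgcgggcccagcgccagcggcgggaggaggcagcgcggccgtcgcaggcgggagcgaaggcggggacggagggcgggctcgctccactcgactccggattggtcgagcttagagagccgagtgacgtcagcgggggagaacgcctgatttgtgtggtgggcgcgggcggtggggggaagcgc

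The second MDM2 promoter held 2 such matches. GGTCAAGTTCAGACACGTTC lay 94 to 75 bases before the start with 2 mismatches, and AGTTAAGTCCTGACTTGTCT lay 56 to 37 bases before it with 3 mismatches. Over the same 250 bases of 35116 RefSeq promoters, 0.561% held a match with at most 2 mismatches and 4.36% one with at most 3. The RPS27L promoter held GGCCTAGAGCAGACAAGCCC, 69 to 50 bases before the start, with 3 mismatches. The best match had 4 mismatches at PPM1D, 5 at the first MDM2 promoter and 6 at CCNG1, and 22.1%, 64.5% and 95.7% of all promoters held a match that good or better. These runs are shorter than the p53 sites of irradiated cells at the 4 genes and end before the start. Part of the sequence under the p53 sites at all 4 starts was therefore not searched, and much of it at CCNG1 and PPM1D. The sequence under the upstream p53 site at MDM2, described below, was not searched. The GRCh38 positions were not carried over to hg18.

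All 4 genes had a p53 site within 5 kb of the start after IR, 3 of them had one in untreated cells already, and 3 of them had a JMJD3 site within 5 kb after IR. None had a JMJD3 site within 5 kb in untreated cells. MDM2, CCNG1 and RPS27L shared the pattern of p53 listed in both conditions and JMJD3 only after IR. At PPM1D p53 was listed only after IR and JMJD3 in neither condition. Both p53 and JMJD3 were thus listed at the start of 3 of the 4 genes after IR. The share of all genes with such sites was not determined, since the starts of other genes on hg18 were not used here, so these counts describe the 4 genes and have no background over genes.

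At MDM2 the p53 site of untreated cells lay at 67488820 to 67489209 and was 390 bp wide. It began 580 bp downstream of the approximate TSS. The site overlapping it after IR, at 67488750 to 67489395, was 646 bp wide and ran from 510 to 1155 bp downstream, so neither site covered the first start, and the second RefSeq start lies at a like distance from the first. After IR 2 JMJD3 sites overlapped the p53 site, at 67488809 to 67488983 (175 bp) and at 67489034 to 67489358 (325 bp). Together they covered 500 bp of it (77.4%), and the centre of the p53 site lay inside a JMJD3 site. Further JMJD3 sites after IR stood on either side of the first start, at 67487989 to 67488205 (217 bp, ending 35 bp upstream) and at 67488335 to 67488476 (142 bp). These sites had no p53 site over them. In untreated cells the JMJD3 site nearest to MDM2 was 62.0 kb away.

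MDM2 was the only gene of the 4 with a second p53 site within 50 kb. This site, at 67467524 to 67467948 and 425 bp wide, was centred 20.5 kb upstream of the approximate TSS and was listed only after IR. No JMJD3 site overlapped it, and the nearest one after IR was 20041 bp away, close to the gene start.

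At CCNG1, on the plus strand like MDM2 and PPM1D, the p53 site of untreated cells lay at 162797339 to 162797592 and was 254 bp wide. After IR it was listed at 162797114 to 162797749, was 636 bp wide and reached from 36 bp upstream to 599 bp downstream of the approximate TSS. A single JMJD3 site of 482 bp, at 162797176 to 162797657, lay wholly inside this p53 site after IR and covered 75.8% of it. The centres of both were 15 bp apart. No JMJD3 site of untreated cells was listed within 100 kb of CCNG1.

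At RPS27L, on the minus strand, p53 was listed across the approximate TSS in both conditions, at 61236318 to 61236846 (529 bp) in untreated cells and at 61236053 to 61236907 (855 bp) after IR. The site after IR reached 407 bp upstream and 447 bp downstream of the start. After IR 2 JMJD3 sites overlapped it. The first, at 61236408 to 61236595 (188 bp), lay across the start, with its centre 21 bp from that of the p53 site. The second, at 61235975 to 61236194 (220 bp), began 306 bp downstream. Together they covered 330 bp of the p53 site (38.6%), the lowest share of the 3 genes. The only JMJD3 site of untreated cells within 50 kb of any of the 4 genes was centred 48.9 kb downstream of RPS27L, at 61187442 to 61187690, and it was listed again after IR.

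At PPM1D the only p53 site, at 56032246 to 56032616 and 371 bp wide, was listed after IR. It reached from 84 bp upstream to 286 bp downstream of the approximate TSS. The nearest JMJD3 site after IR was 45.6 kb from it, on the upstream side, at 55986395 to 55986640 (246 bp), and in untreated cells the nearest JMJD3 site was 753 kb from the TSS. PPM1D was therefore the only gene of the 4 whose start had p53 listed without JMJD3 after IR.

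**Figure D1:**
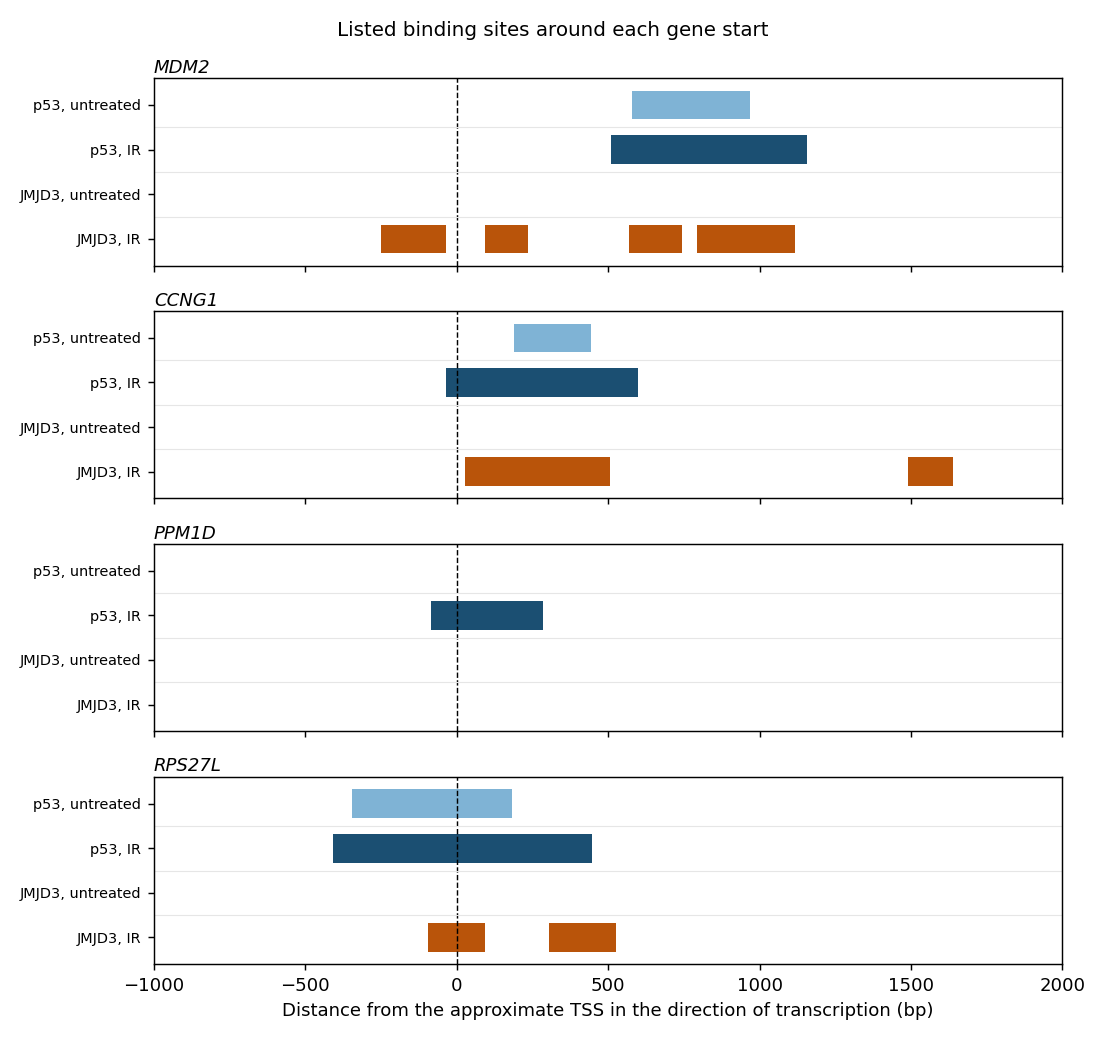
Sites of the 4 lists around each approximate TSS (dashed line, distance in bp in the direction of transcription). Each bar is 1 listed site drawn to scale. Bars of p53 after IR overlap bars of JMJD3 after IR at MDM2, CCNG1 and RPS27L and not at PPM1D, and no JMJD3 site of untreated cells is drawn.

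The sites themselves, as opposed to the genes, were counted in the same way over the whole lists. Of all 3232 p53 sites after IR, 21.2% overlapped a JMJD3 site after IR (exact 95% binomial interval 19.8 to 22.7%, counting error only), 10.6% a p53 site listed before IR and 2.63% a JMJD3 site listed before IR. Of the 5 p53 sites after IR at the 4 genes, 3 overlapped JMJD3 after IR, the same 3 overlapped p53 of untreated cells, and 0 overlapped JMJD3 of untreated cells. The pattern of MDM2, CCNG1 and RPS27L, with p53 in both conditions and JMJD3 only after IR, was found at 109 of the 3232 sites (3.37%). The pattern of the PPM1D site and of the upstream MDM2 site, overlapped by no other list, was the most frequent, with 71.6% of all sites. More than 1 JMJD3 site lay over the p53 site at MDM2 and at RPS27L, which was the case at 24 of 3232 p53 sites (0.743%). Of the p53 sites in untreated cells 95.6% were found in the list after IR too, as were 3 of 3 at these genes. For JMJD3 this share was 86.8%, with 1 of 1 here. In the other direction 11.9% of all JMJD3 sites after IR overlapped a JMJD3 site of untreated cells, against 1 of 61 at these genes. Of these 61, 44 lay at MDM2 and 12 at RPS27L, and merging within 1 kb left 22. The contrast depends on the window. Between 50 and 100 kb, 9 of 19 sites downstream of RPS27L and 1 of 1 upstream of MDM2 overlapped such a site. The other JMJD3 sites after IR in that zone did not.

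Width moved with these patterns. The p53 sites at the starts of MDM2, CCNG1 and RPS27L were wider than 96.9%, 96.6% and 99.3% of the p53 list after IR, whereas the PPM1D site was wider than 73.8% and the upstream MDM2 site than 83.7%. The median of the list was 288 bp. Only 22 p53 sites of the list were wider than that of RPS27L. Among the 109 p53 sites of at least 636 bp, the width of the CCNG1 site, 87.2% had p53 listed before IR and 54.1% overlapped a JMJD3 site after IR (exact 95% interval 44.3 to 63.7%). The pattern shared by the 3 genes was found at 47.7% of these wide sites, and 13.8% lay under more than 1 JMJD3 site. Beside p53 sites of like width, the pattern of the 3 genes was therefore a frequent one. This comparison was chosen after the data were seen.

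All 3 p53 sites listed in both conditions were wider after IR. The ratio of the width after IR to that in untreated cells was 1.66 at MDM2, 2.50 at CCNG1 and 1.62 at RPS27L. Over the 345 p53 sites listed in both conditions the median ratio was 1.84 (quartiles 1.58 and 2.11), and all 345 were wider after IR. CCNG1 lay above 90.7% of these ratios, and MDM2 and RPS27L lay above 34.8% and 29.9%. In untreated cells the 3 sites stood further apart, since the CCNG1 site was wider than 31.6% of its list, against 86.4% for MDM2 and 97.5% for RPS27L. The lists hold no signal height, so a wider site cannot be read as stronger binding. The part of depth in the widening was not tested.

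**Figure D2:**
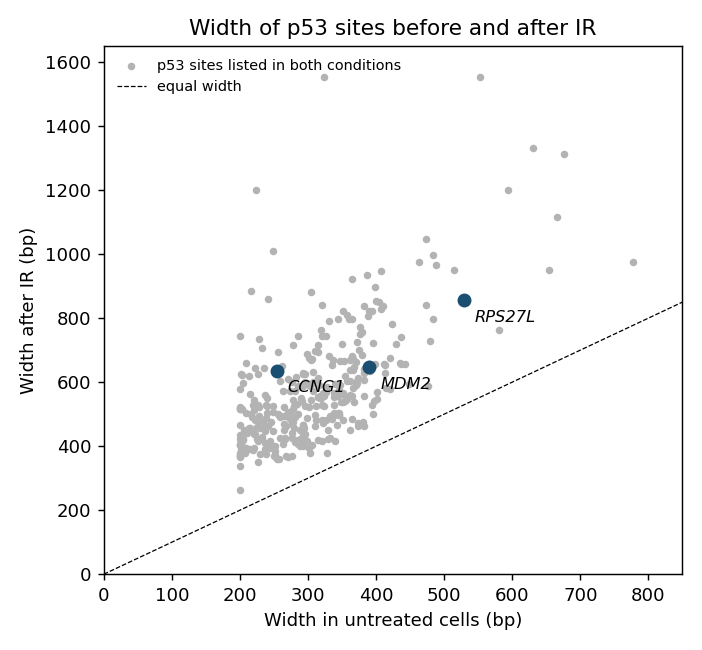
Width of each p53 site in untreated cells (x axis, bp) against the width of the widest overlapping p53 site after IR (y axis, bp), for the 345 sites listed in both conditions (grey) and for MDM2, CCNG1 and RPS27L (blue). All points lie above the dashed line of equal width, with MDM2 at 390 and 646 bp, CCNG1 at 254 and 636 bp, and RPS27L at 529 and 855 bp.

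Away from the starts the 4 genes differed most in JMJD3 after IR. Within 50 kb there were 44 JMJD3 sites at MDM2, 12 at RPS27L, 4 at CCNG1 and 1 at PPM1D, 61 in all, against 1 in untreated cells. The lists that these come from hold 35133 sites after IR and 4717 in untreated cells. The 2 JMJD3 lists do not share a lower limit of width, as the narrowest site was 125 bp after IR and 200 bp in untreated cells. The 61 sites became 36 when only those of at least 200 bp were counted and 22 when sites within 1 kb of each other were merged, against 1 site of untreated cells under either rule. Most lay downstream of the start, with 57 downstream, 1 across a start and 3 upstream. At MDM2 43 of the 44 were downstream, and all 4 were at CCNG1. At RPS27L 10 were downstream, 1 lay across the start and 1 was 32.1 kb upstream. The single site at PPM1D was upstream.

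At MDM2 the JMJD3 sites after IR were spread from the start to the edge of the window, with gaps of up to 3925 bp between them. They covered 11.9 kb in all. The first 10 kb downstream of the approximate TSS held 9 sites covering 26.2% of the sequence, the next 10 kb held 3 (6.98%), and the 3 steps after that held 6 (14.5%), 10 (27.9%) and 15 (41.0%). The cover was therefore highest at the far end of the window. Widths ran from 125 to 949 bp with a median of 221 bp, and the widest site, at 67492375 to 67493323, was centred 4.61 kb downstream and was wider than 99.1% of the JMJD3 list after IR. The next site, at 67493562 to 67493686, was 125 bp wide. Of the 44 sites 18 were under 200 bp. No JMJD3 site was listed upstream of MDM2 within 50 kb other than that ending 35 bp from the TSS. In RefSeq order the next protein-coding gene downstream of MDM2 is CPM and the next upstream is SLC35E3. Which of the sites lie past the end of MDM2 was not determined, since an hg18 annotation was not used here.

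At RPS27L the JMJD3 sites after IR covered 3.28 kb and were 155 to 542 bp wide. Beside the 2 at the start, 2 were centred 4.14 and 5.11 kb downstream and 3 more followed at 5.58 to 6.76 kb. A pair was centred 11.4 and 11.7 kb downstream and a single site 23.3 kb downstream. The site centred 49.1 kb downstream, at 61187177 to 61187718 and 542 bp wide, was the only site of the 61 with a JMJD3 site over it before IR. The next protein-coding genes in RefSeq order are LACTB and TPM1 downstream and RAB8B upstream, and the gene to which the farther sites belong was not determined.

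At CCNG1 the 3 JMJD3 sites beyond the start were narrow, with 151 bp at 1.56 kb, 125 bp at 7.98 kb and 155 bp at 10.5 kb downstream. The first site, at the p53 site, was 482 bp wide, and 1742 of the 35133 JMJD3 sites after IR were wider. Among all JMJD3 sites after IR 56.0% were under 200 bp, and no site of the other lists was. At the 4 genes 25 of 61 (41.0%) were under 200 bp.

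**Figure D3:**
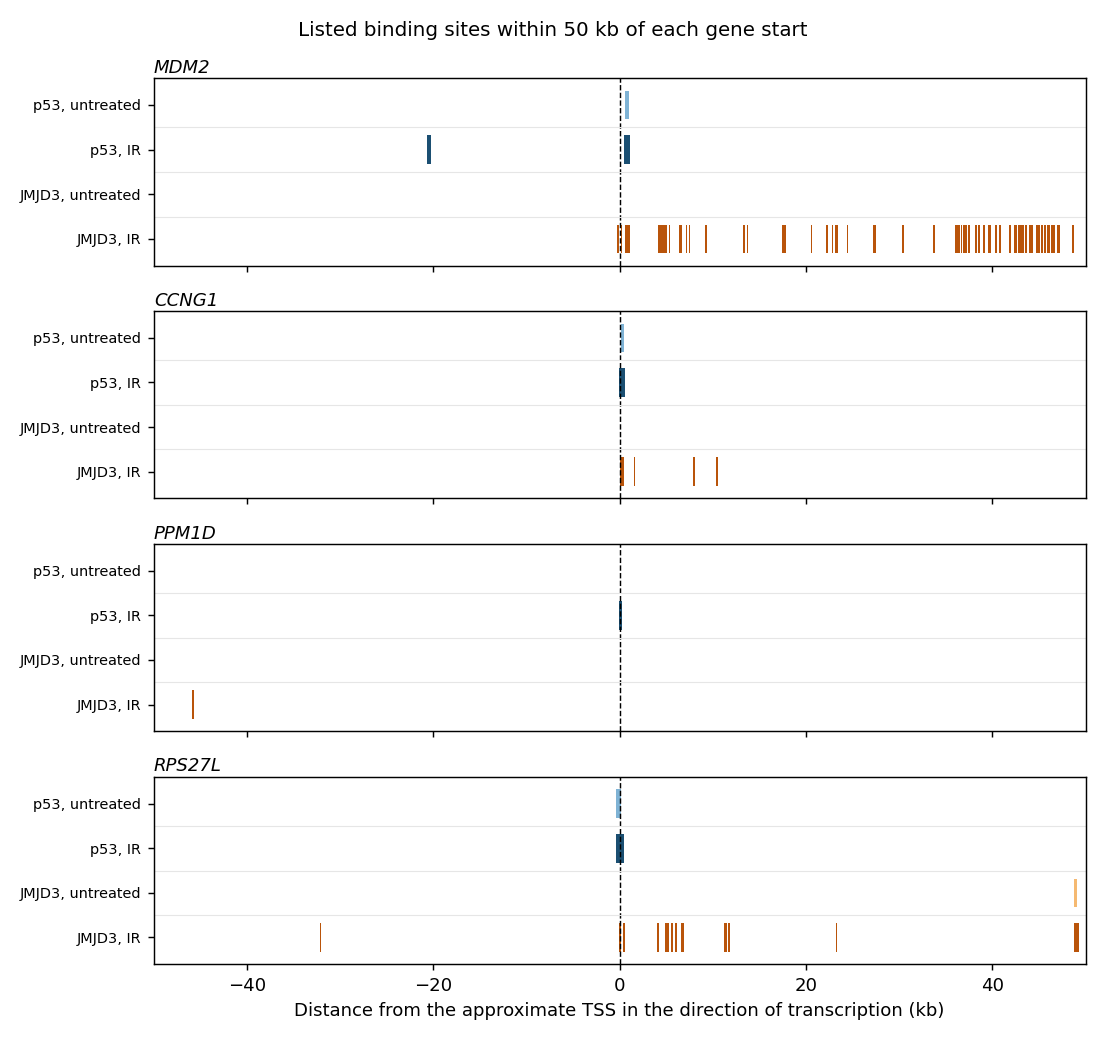
Sites of the 4 lists within 50 kb of each approximate TSS (dashed line), with the distance in kb in the direction of transcription. Each bar is 1 listed site. JMJD3 after IR has 43 sites spread along the downstream side of MDM2 and 1 site upstream, next to the start, and the other genes have 12 (RPS27L), 4 (CCNG1) and 1 (PPM1D).

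The number of JMJD3 sites after IR within 50 kb of the centre of a p53 site was counted over all p53 sites after IR. The median was 2, and 27.0% of p53 sites had none. For p53 sites overlapped by JMJD3 the median was 4 (quartiles 2 and 7). The MDM2 site at the start had 44, as many as or more than all but 3 of the 3232 p53 sites (4 sites, 0.124%, had at least 44). The upstream MDM2 site had 20, most of which are also counted for the site at the start. RPS27L had 12, more than 95.6% of p53 sites, CCNG1 had 4, equal to the median of overlapped sites, and PPM1D had 1. Of all p53 sites after IR 79.7% had no JMJD3 site of untreated cells within 50 kb, as was the case for the p53 sites at the starts of MDM2, CCNG1 and PPM1D. The p53 site at RPS27L and the upstream MDM2 site did have a JMJD3 site of untreated cells within that distance.

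**Figure D4:**
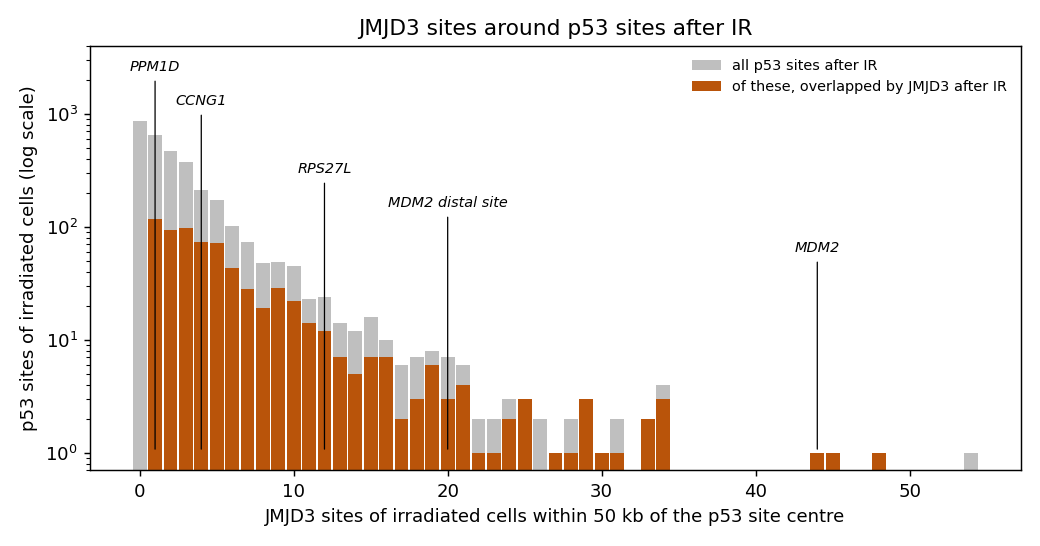
Number of p53 sites of irradiated cells (y axis, log scale) by the number of JMJD3 sites of irradiated cells within 50 kb of their centre (x axis), for all 3232 p53 sites (grey) and for the 686 overlapped by JMJD3 (orange). Lines mark the p53 sites at the 4 genes, from 1 at PPM1D and 4 at CCNG1 to 12 at RPS27L and 44 at MDM2, whose upstream site has 20.

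Other genes of the p53 pathway and the sites over exons, introns and UTRs were not analysed here, because only the starts of these 4 genes were at hand on hg18. The starts are approximate. When they were moved by 1 kb in either direction, the number of genes with a site within 50 kb stayed the same in each list. Distances, sides and counts within 5 kb were not computed again for the moved starts.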

How the data were processed

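The deposited values are positions. Per the labels and the paper's methods, the authors ran Bowtie 0.12.7 against hg18, keeping tags that align to a single place, and used SAMtools and MACS2, with an IgG library as the control of the peak detection. The threshold is not given in the sources used here. The deposited lists hold 3 columns, chromosome, start and end. Positions are printed counting from 1.

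Sites with an edge within 50 kb of each approximate TSS were taken, and the strand, the order of neighbouring genes and the promoter sequences came from RefSeq (GRCh38.p14), by symbol, with 4 of 4 genes matched. Sites sharing at least 1 bp were counted as overlapping, with numpy 2.4.6 in Python 3.11.15. The overlap of both proteins after IR was checked with bedtools 2.31.1, and the steps were tested on simulated data. Intervals are exact (Clopper-Pearson) 95% intervals from scipy 1.17.1. Figures were drawn with matplotlib 3.10.9. No test between conditions was made, with 1 library each.

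The genes, windows and alternatives were chosen with earlier results of these data known. All 4 genes and every p53 site are given, every JMJD3 site within 5 kb and the nearest beyond. Further JMJD3 sites named were chosen after their values were seen.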

Additional observations from a re-analysis of the deposited data

How the results depend on the processing

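With a window of 5, 10 or 25 kb the JMJD3 list of irradiated cells held 11, 20 or 32 sites at the 4 genes in place of 61, and that of untreated cells held 0 sites at 0 genes in place of 1 site at 1 gene. With 100 kb the list of untreated cells held 11 sites at 2 genes. The list of irradiated cells then held 89, which was within 1.5 times of 61 and does not count among those that moved. JMJD3 sites after IR numbered 36 when at least 200 bp wide and 22 when merged within 1 kb. Over all p53 sites after IR, the share overlapped by JMJD3 after IR was 12.9% with 50% of the p53 site covered, 15.2% with its centre inside, 26.2% with sites within 1 kb taken as overlapping and 54.1% among p53 sites at least as wide as that of CCNG1. The share overlapped by p53 of untreated cells was 7.05% with 50% covered and 87.2% among the wide sites, and that overlapped by JMJD3 of untreated cells was 3.53% within 1 kb. These 20 of 104 comparisons moved by more than 1.5 times or beyond the counting interval, and the other 84 did not. Among these 84 were counts at the 4 genes that stood at the limit. With 50% of the p53 site covered, 2 in place of 3 p53 sites after IR overlapped JMJD3 after IR, without RPS27L (38.6% covered). Likewise 2 in place of 3 overlapped p53 of untreated cells, without CCNG1 (254 of 636 bp). Only MDM2 then kept the pattern of the 3 genes. Smaller windows, a minimum width, merging and stricter or looser overlap rules change counts by construction, and for the wide sites the cause was not tested. The values are counts and shares, which have no direction that could reverse. Of 8 further comparisons, on the share of a list narrower than the site nearest to each TSS, 4 moved. The restriction to wide sites was added after seeing the data.

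No paired analysis was possible because there is a single library for each antibody and exposure. Each comparison of untreated with irradiated cells is limited by library depth, which is unknown, and absence from a list does not show absence of binding.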

Other observations

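Beyond the 50 kb window the loci differed in what JMJD3 showed before IR. Between 50 and 100 kb downstream of RPS27L, on the side of LACTB and TPM1 (the latter encodes tropomyosin 1, a protein of actin filaments), 9 JMJD3 sites of untreated cells were listed, centred 81.7 to 100 kb away and 254 to 852 bp wide, and all 9 overlapped a JMJD3 site after IR. After IR 19 JMJD3 sites were listed there, of which 9 overlapped a site of untreated cells. No p53 site was listed in this stretch. This run therefore differs from the JMJD3 sites near the RPS27L start, which were listed only after IR.

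At MDM2 a JMJD3 site 62.1 kb upstream was listed in both conditions (217 bp in untreated cells and 192 bp after IR), and 4 JMJD3 sites of 125 to 179 bp lay farther downstream at 51.4 to 89.7 kb after IR. At PPM1D a further p53 site of 292 bp was listed after IR 70.1 kb upstream, on the side of APPBP2, with no overlapping JMJD3 site, and a JMJD3 site of 188 bp was listed 74.0 kb upstream. Upstream of RPS27L 3 JMJD3 sites of 133 to 604 bp were listed after IR, centred 55.7 to 99.6 kb away, none of them over a JMJD3 site of untreated cells. CCNG1 had no site of any list between 50 and 100 kb.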
